A study of Mus musculus with 11 samples.

Results

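Glycolysis and hypoxia response genes were followed in mouse microglia, the resident macrophages of the brain, across 4 groups of arrays. The set was a list of 36 genes given by symbol. Its members were found by pairing the RefSeq accession of each array probe with a gene symbol, and 33 of the 36 had a matched probe, out of 19555 genes tested in all. Pdk1, Ndrg1 and Higd1a had none and were not analysed here. The matching used no measured value, but the list was chosen with earlier results of these data known. All 33 passed the filter on dim probes, and each had at least 1 probe above background on every array.

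RNA came from C57BL/6N mice in 11 single-colour arrays. A_FACS (2 arrays) held microglia from female adults of 12 to 24 weeks, and NB_FACS (3 arrays) held microglia from newborns of both sexes at postnatal days 1 to 3. Both were sorted by flow cytometry on intermediate CD45 and high CX3CR1 and lysed without culture. NB_Control (3 arrays) and NB_Stim (3 arrays) were newborn microglia grown in mixed flask cultures of 2 to 3 pooled brains in medium with 10% serum, fed with 20% conditioned medium of L-929 cells, a mouse fibroblast line, harvested by shaking between day 18 and day 34 and kept for 1 further day as monoculture. NB_Stim additionally received 3 human cytokines, each at 100 ng/mL, namely CX3CL1, IL-34 and TGF-β1, factors made by other brain cells that help maintain microglia. The labels name no genotype or oxygen treatment. Cultured and sorted newborn cells differed in isolation method and weeks of flask growth as well as in the day of monoculture, and adult and newborn cells differed in age and sex composition, so these cannot be told apart. The sorted cells had also met serum during dissociation.

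Glycolysis converts glucose to pyruvate in the cytosol, and its enzymes exist as isoforms from separate genes that differ between tissues. When oxygen is low, or under other signals such as inflammatory stimulation, the transcription factor HIF-1 is stabilised and raises transport, glycolytic and angiogenic genes together with prolyl hydroxylases of the EGLN family, which in normal oxygen mark its alpha subunit for degradation. In microglia and other macrophages glycolysis rises with activation, while resting microglia in the brain rely to a larger extent on oxidative metabolism.

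Values are quantile normalised log2 signals in arbitrary units, averaged over the probes of a gene, and group levels are means ± SD of the arrays. Levels were compared between groups of one gene and never between genes. Differences are log2 differences with their standard error (SE), and intervals are unadjusted 95% intervals from limma. A gene was called higher or lower at an adjusted p under 0.05 in limma's moderated two-sided test across all 19555 genes. On the single arrays 66.8% to 80.5% of the probes passed the scanner software's test against background. Slide 2 held replicate 3 of NB_FACS, NB_Control and NB_Stim, and slide 1 held the rest. Replicates of a group correlated at r = 0.965 to 0.995 over all genes. The number of arrays limits the precision. The study's methods describe its replicates as independent biological ones, while the labels do not say that they came from separate cultures or animals. The p-values therefore measure the spread between these samples.

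The first comparison asked which members differed between cultured and freshly sorted newborn microglia. In NB_Control 21 of 33 members rose against NB_FACS, where 15.8% of all genes rose, and 3 fell, where 13.9% of all genes fell. The median log2 difference of the members was 1.02, against 0.09 over all genes. The angiogenic factor Vegfa rose 11.1-fold, the vasodilator peptide gene Adm 8.63-fold, the prolyl hydroxylase gene Egln3 8.05-fold and the pyruvate kinase gene Pkm 6.02-fold. Ldhb, the lactate dehydrogenase subunit that favours conversion of lactate to pyruvate, Pfkfb3, an enzyme that makes an activator of phosphofructokinase, and the monocarboxylate transporter gene Slc16a1 fell.

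The second comparison set stimulated culture against the same sorted newborn cells. In NB_Stim 21 members again rose, where 16.0% of all genes rose, and 2 fell, where 15.1% fell. The median difference was 1.26, against 0.11 over all genes. This comparison shares the NB_FACS arrays with the first, so the counts are given side by side and not as separate support. Slc16a1 and Pfkfb3 were lower in both cultures. Egln3 had the largest rise, 39.3-fold.

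The effect of the cytokines was read from NB_Stim against NB_Control. Of 33 members 1 rose (Ldhb), where 1.40% of all genes rose, and 1 fell (the hexokinase gene Hk3), where 2.00% fell. The other 31 did not pass the adjusted threshold. An unadjusted limma p under 0.05 was found for 8 of the 33, Hk3 and Ldhb included. No share of all genes was taken at that threshold, so this count is not read as a result about the members. The median difference was 0.18, against -8e-04 over all genes. With the replicate number as a block, 4 members were called, since Hk2, at an adjusted p of 0.00214, and P4ha1, at 0.0446, joined Hk3 and Ldhb. With slide as a block Pfkl joined these as well (adjusted p = 0.0327). On slide 1 only, Hk3 was not called (adjusted p = 0.0753). The count was 1 without NB_FACS replicate 2, NB_Control replicate 2 or 3, or NB_Stim replicate 1 or 2. Shares of all genes under these settings are not given here, so the changed counts are not read as a result about the members.

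Age was examined in sorted cells only. In A_FACS 3 members rose against NB_FACS (P4ha1, Pfkfb3 and Slc2a1), where 9.76% of all genes rose, and 3 fell (Pgk1, Eno2 and Slc16a1), where 12.9% fell. The median member difference was 0.18, against -0.0089 over all genes. Thus 27 of 33 members were not called. Both adult arrays were on slide 1, as were 2 of the 3 NB_FACS arrays. With slide as a block 12 members were called, Bnip3l, Hk2 and Pfkl joining as higher and Gpi1, Pgam1 and Pkm as lower. On slide 1 only, 13 were called (9 higher and 4 lower). Shares of all genes under these settings are not given here, so the larger counts are not read as a result about the members. The count was 3 without A_FACS replicate 1 and 11 without NB_Control replicate 3, which enters through the shared estimate of the spread.

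**Figure D1:**
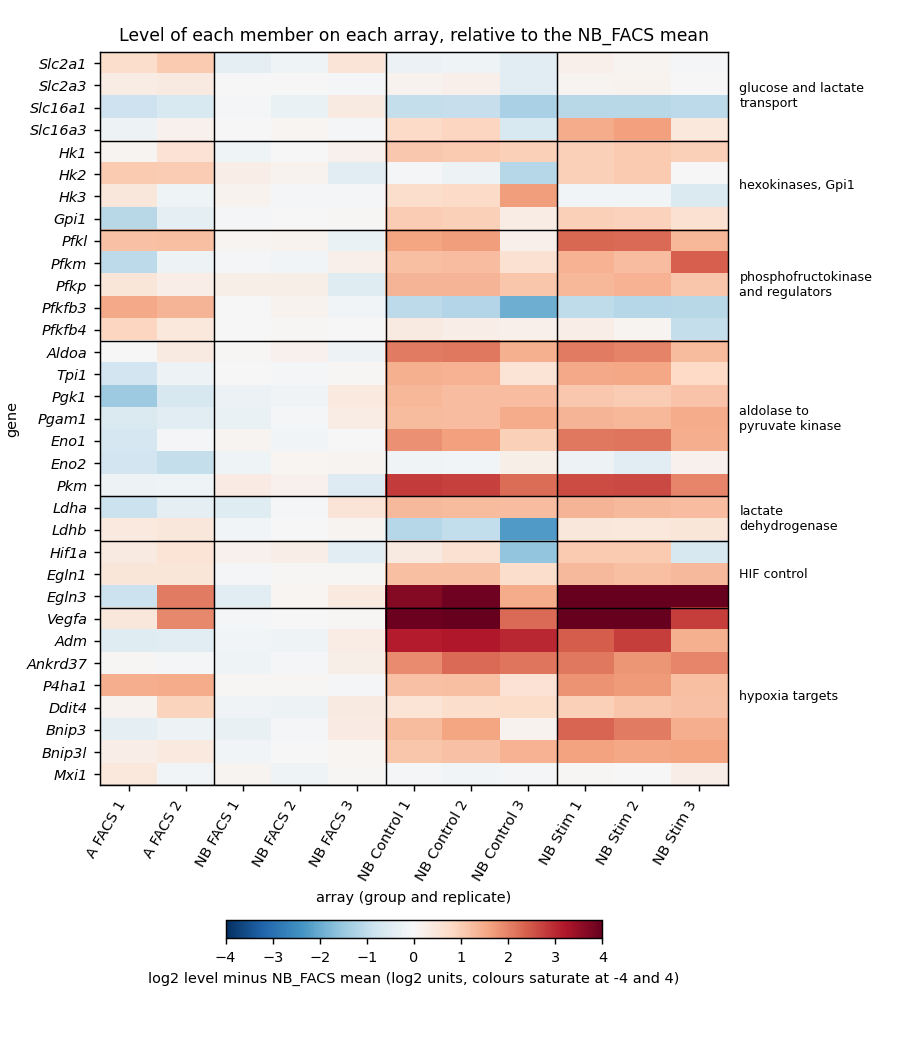
Heat map of 33 members (rows, grouped by role) on 11 arrays (columns, grouped by condition). Colour gives the log2 level minus the mean of the 3 NB_FACS arrays, red for higher and blue for lower, saturating at 4 units. Most rows from aldolase to pyruvate kinase and most hypoxia targets are red on all 6 culture arrays, Ldhb is blue on the 3 NB_Control arrays only, and Egln3 and Vegfa are lighter on NB_Control replicate 3 than on the other culture arrays.

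Other cell types and growth state moved with the cultured and sorted groups. The summed signal of 7 measured fibroblast markers was 9.95 to 10.25 in NB_FACS, 14.90 to 15.16 in NB_Control and 14.14 to 15.24 in NB_Stim on the log2 scale, and 5 of the 7 rose in NB_Control and all 7 in NB_Stim. Erythroid markers ran the other way, at 17.18 to 17.65 in NB_FACS, 7.92 to 8.12 in NB_Control and 7.94 to 8.45 in NB_Stim, and Hbb-bt, a beta-globin gene, was not above background on any culture array. All 8 cell cycle genes fell in both cultures, and their summed level was 15.38 to 15.61 in NB_FACS, 13.12 to 13.78 in NB_Control and 12.76 to 13.19 in NB_Stim. Endothelial markers were at 12.25 to 12.70 in NB_FACS, 9.97 to 10.14 in NB_Control and 11.02 to 11.26 in NB_Stim, with 4 of 7 lower in NB_Control, and 3 lower and 1 (Flt1) higher in NB_Stim. Of 6 astrocyte markers 2 rose in NB_Control and 3 in NB_Stim, and of 7 neuronal markers 2 fell in each culture. Of 5 neutrophil and monocyte markers 1 rose and 1 fell in NB_Control and 2 fell in NB_Stim. For all genes the shares were 15.8% higher and 13.9% lower in NB_Control and 16.0% higher and 15.1% lower in NB_Stim.

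Microglial markers were above background on every array, with a summed level of 18.80 to 18.84 in A_FACS, 18.30 to 18.37 in NB_FACS, 17.52 to 17.83 in NB_Control and 18.19 to 18.36 in NB_Stim. Of 9 measured, 5 fell in NB_Control against NB_FACS, where 13.9% of all genes fell. In NB_Stim against NB_Control 4 rose, where 1.40% of all genes rose. The part of these cell types in the member differences was not tested, and in bulk samples fewer cells of a type and less RNA per cell cannot be told apart.

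**Figure D2:**
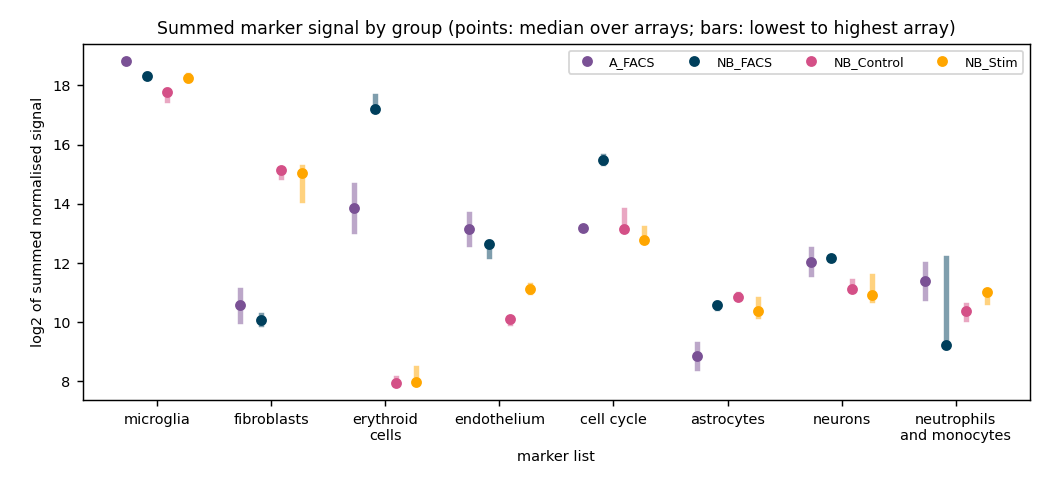
Summed normalised signal (log2) of 8 marker lists, with the points at the median and the bars from the lowest to the highest array of each group. The fibroblast medians are 15.15 and 15.03 in NB_Control and NB_Stim and 10.06 in NB_FACS, whereas the erythroid medians are 7.94 and 7.99 in the cultures and 17.20 in NB_FACS.

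Because many members are classed as HIF targets, the 250 bases before their RefSeq starts (GRCm38.p6) were searched for the core letters of the hypoxia response element, ACGTG and GCGTG, on both strands. Promoters were on hand for 33 of 36 members, with 48 starts in all. ACGTG was found before 52.1% of the member starts and GCGTG before 50%, and either before 79.2%. Over all 32851 promoters of the same length the shares were 16.6%, 28.2% and 38.6%. The median GC content was 62.2% for the members and 52.4% for all promoters. Of the 20 members with a promoter that rose in NB_Control, 18 (90.0%) had a core before at least 1 start. Of the 11 other tested members 10 (90.9%) did, and of all 27025 genes with a promoter 41.5% did.

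Stretches are shown for 4 members with large rises or a known role in the lactate step (Egln3, Adm, Ankrd37 and Ldha) and for both members called between the cultures (Ldhb and Hk3), each read 5′ to 3′ on the gene's strand and ending at the base before the start. Capitals mark the core letters, and CACGT and CACGC are the same cores on the opposite strand. A CACGTG counts as 1 core on each strand.
Egln3 (chr12:54203875-54204124, minus strand): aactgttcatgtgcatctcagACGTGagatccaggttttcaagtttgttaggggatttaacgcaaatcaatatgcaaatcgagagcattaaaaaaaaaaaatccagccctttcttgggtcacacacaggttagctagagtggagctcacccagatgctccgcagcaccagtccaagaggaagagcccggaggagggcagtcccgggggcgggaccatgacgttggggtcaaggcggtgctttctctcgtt
Adm (chr7:110627407-110627656, plus strand): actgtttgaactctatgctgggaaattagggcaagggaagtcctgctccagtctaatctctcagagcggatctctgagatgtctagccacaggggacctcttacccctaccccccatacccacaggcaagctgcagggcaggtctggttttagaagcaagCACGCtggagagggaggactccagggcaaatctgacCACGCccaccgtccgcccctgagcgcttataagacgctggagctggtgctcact
Ankrd37 (chr8:45999851-46000100, minus strand): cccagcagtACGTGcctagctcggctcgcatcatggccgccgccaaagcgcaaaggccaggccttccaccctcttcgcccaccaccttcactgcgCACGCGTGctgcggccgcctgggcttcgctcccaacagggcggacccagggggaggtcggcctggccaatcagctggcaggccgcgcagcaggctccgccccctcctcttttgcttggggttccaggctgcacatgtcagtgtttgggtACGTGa
Ldha (chr7:46845554-46845803, plus strand): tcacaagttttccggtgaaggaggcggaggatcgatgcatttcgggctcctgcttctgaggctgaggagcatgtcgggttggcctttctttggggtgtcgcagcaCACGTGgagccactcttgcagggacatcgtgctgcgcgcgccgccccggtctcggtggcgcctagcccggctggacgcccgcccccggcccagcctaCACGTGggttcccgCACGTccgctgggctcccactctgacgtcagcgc
Ldhb (chr6:142507958-142508207, minus strand): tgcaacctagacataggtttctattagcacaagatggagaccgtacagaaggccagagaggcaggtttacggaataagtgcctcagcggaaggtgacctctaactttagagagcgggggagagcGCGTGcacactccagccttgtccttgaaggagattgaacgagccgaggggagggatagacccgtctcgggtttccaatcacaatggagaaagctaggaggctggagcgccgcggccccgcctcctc
Hk3 (chr13:55021386-55021635, minus strand): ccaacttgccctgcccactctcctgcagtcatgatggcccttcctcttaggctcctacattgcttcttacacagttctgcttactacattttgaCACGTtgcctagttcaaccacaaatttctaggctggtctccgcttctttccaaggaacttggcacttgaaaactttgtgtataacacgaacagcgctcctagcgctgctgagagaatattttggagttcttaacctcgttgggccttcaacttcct
In the stretches shown, Ldha had 5 cores, all ACGTG, and Ankrd37 had 4, including a GCGTG on each strand that overlap. Adm had 2, both GCGTG read on the opposite strand. Egln3, Ldhb and Hk3 had 1 each, beginning at positions -229, -126 and -156 from the start. Ldha has another start, with 1 core (GCGTG). Of the starts of Vegfa, the member with the largest rise in NB_Control, the first held none and the second held 2. A match of 5 letters is a description of the sequence and says nothing about binding.

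Glucose enters through facilitative carriers and lactate leaves through monocarboxylate transporters. None of these 4 genes was called higher in culture in the main fit, though Slc16a3 was in several alternative settings. Slc2a1, the gene of GLUT1, read 13.39 ± 0.24 in A_FACS, 12.53 ± 0.46 in NB_FACS, 12.25 ± 0.13 in NB_Control and 12.61 ± 0.12 in NB_Stim. It did not pass the test in either culture, with differences of -0.28 ± 0.22 (SE, adjusted p = 0.395) in NB_Control and 0.086 ± 0.22 (SE, adjusted p = 0.802) in NB_Stim against NB_FACS. The adult arrays read 13.22 and 13.56 against 12.16, 12.36 and 13.05 in NB_FACS, with no overlap. Slc2a1 thus rose 1.82-fold in adults, by 0.87 ± 0.25 (SE, adjusted p = 0.0306). The call was lost without A_FACS replicate 1 (difference 1.04) or 2 (0.70), which leaves 1 adult array. It was also lost without NB_FACS replicate 1 (adjusted p = 0.0814) or 2 (0.0888). The same held with 75th percentile scaling (adjusted p = 0.11), only the 2 groups compared (0.119) and the Tukey test (0.207). Slc2a3, for GLUT3, read 6.62 ± 0.053 in A_FACS, 6.30 ± 0.047 in NB_FACS, 6.26 ± 0.34 in NB_Control and 6.38 ± 0.089 in NB_Stim. Its interval for NB_Control against NB_FACS was -0.41 to 0.34.

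Both monocarboxylate transporter genes were measured. Slc16a1, for MCT1, read 8.18, 8.01 and 8.62 in NB_FACS, 7.32, 7.36 and 6.98 in NB_Control, 7.16, 7.17 and 7.23 in NB_Stim and 7.43 and 7.67 in A_FACS. The 3 NB_FACS arrays lay above the 8 others. In NB_Control it fell by 1.05 ± 0.18 (SE, adjusted p = 0.00156), and in NB_Stim it fell by 1.08 ± 0.18 (SE, adjusted p = 0.00133). In adults it fell by 0.72 ± 0.20 (SE, adjusted p = 0.0274). The call was lost without A_FACS replicate 1 (difference -0.61) or 2 (-0.84), which leaves 1 adult array. It was also lost without NB_FACS replicate 3 (adjusted p = 0.06), with only the 2 groups compared (0.099) and with the Tukey test (0.153). Slc16a3, for the lactate exporter MCT4, read 9.29 ± 0.26 in A_FACS, 9.31 ± 0.086 in NB_FACS, 9.64 ± 0.83 in NB_Control and 10.49 ± 0.66 in NB_Stim. Its difference from NB_FACS was 0.33 ± 0.41 (SE, adjusted p = 0.609) in NB_Control and 1.17 ± 0.41 (SE, adjusted p = 0.0558) in NB_Stim. The NB_Stim difference was called with the replicate block (adjusted p = 0.00771), slide as a block (0.005) and on slide 1 only (0.00059). It also passed with the brightest probe (0.0234), only the 2 groups compared (0.0388), normexp (0.0432) and the stricter filter (0.0458). The same held without replicate 3 of NB_Control (0.0142) or NB_Stim (0.0154). On slide 1 only, the NB_Control difference was called as well (adjusted p = 0.00864). Replicate 3 stood apart here, with 0.76 on slide 1 and -0.53 on slide 2 for NB_Control against NB_FACS.

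Hexokinases trap glucose as glucose 6-phosphate, and the 3 isoforms took different courses. Hk1, the broadly expressed form, read 6.17 ± 0.34 in A_FACS, 5.84 ± 0.17 in NB_FACS, 6.86 ± 0.063 in NB_Control and 6.83 ± 0.051 in NB_Stim, and rose in NB_Control by 1.02 ± 0.15 (SE, adjusted p = 0.000696) and in NB_Stim by 0.99 ± 0.15 (SE, adjusted p = 0.00082). Its 3 probes disagreed, at 1.87, 1.52 and -0.33 in NB_Control against NB_FACS, and the second of them was above background on 0 of 3 NB_FACS arrays. Hk2, the form most often named as a HIF target, read 12.60 ± 0.023 in A_FACS, 11.57 ± 0.37 in NB_FACS, 11.09 ± 0.59 in NB_Control and 12.24 ± 0.56 in NB_Stim and was not called in the 4 comparisons without a block. It lay 1.15 higher in NB_Stim than in NB_Control, without overlap between the 6 arrays, at an adjusted p of 0.124. With the replicate block Hk2 was called in all 3 newborn comparisons, lower in NB_Control than in NB_FACS (adjusted p = 0.0156), higher in NB_Stim than in NB_FACS (0.00347) and higher in NB_Stim than in NB_Control (0.00214). Against NB_FACS the adult difference of 1.03 ± 0.39 (SE, adjusted p = 0.0866) was called with slide as a block (adjusted p = 0.0035) and on slide 1 only (0.00294). The arrays read 11.85, 11.72 and 11.16 in NB_FACS, 11.49, 11.37 and 10.42 in NB_Control and 12.51, 12.62 and 11.60 in NB_Stim, so replicate 3 was the lowest of each newborn group.

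Hk3, the hexokinase of myeloid cells, was the member that fell with the cytokines. It read 7.81, 7.87 and 8.76 on the NB_Control arrays and 6.99, 6.97 and 6.50 on the NB_Stim arrays, and 7.24, 7.01 and 7.03 in NB_FACS. The adult arrays were at 7.54 and 6.91. All 3 NB_Control arrays lay above all 8 others, and NB_Stim lay just below NB_FACS without overlap. Hk3 rose by 1.05 ± 0.28 (SE, adjusted p = 0.016) in NB_Control against NB_FACS, a call lost without NB_FACS replicate 2 (adjusted p = 0.0549). It was 2.5-fold lower in NB_Stim than in NB_Control, a difference of -1.32 ± 0.28 (SE, adjusted p = 0.0308). NB_Stim against NB_FACS gave -0.27 ± 0.28 (SE, adjusted p = 0.494). Its 4 probes gave -1.24 to -1.43 between the cultures. The difference was -0.86 on slide 1 and -2.25 on slide 2. The call was lost without NB_Control replicate 2 (adjusted p = 0.0605) or 3 (0.055), NB_FACS replicate 2 (0.0579), or NB_Stim replicate 1 (0.0819), 2 (0.0836) or 3 (0.0784).

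Gpi1, glucose-6-phosphate isomerase, read 13.28 ± 0.53 in A_FACS, 14.00 ± 0.059 in NB_FACS, 14.75 ± 0.39 in NB_Control and 14.82 ± 0.18 in NB_Stim. It rose in NB_Control by 0.76 ± 0.24 (SE, adjusted p = 0.0365) and in NB_Stim by 0.82 ± 0.24 (SE, adjusted p = 0.0245). The NB_Control call was lost without NB_Control replicate 1 or 2, any 1 NB_FACS array or NB_Stim replicate 1 or 2, at adjusted p-values of 0.0517 to 0.132, and the NB_Stim call without replicate 1 or 2 of NB_FACS or NB_Stim, at 0.0664 to 0.0802. The adult level was the lowest of the 4 groups, though the difference of -0.72 ± 0.26 (SE, adjusted p = 0.0807) from NB_FACS did not pass the test. With slide as a block (adjusted p = 0.0302) or with 75th percentile scaling (0.0204) it did.

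Phosphofructokinase commits the sugar to glycolysis and is assembled from liver, muscle and platelet subunits. All 3 subunit genes rose in both cultures, where 15.8% of all genes rose in NB_Control and 16.0% in NB_Stim. Pfkl read 10.62 ± 0.018 in A_FACS, 9.44 ± 0.23 in NB_FACS, 10.59 ± 0.82 in NB_Control and 11.40 ± 0.55 in NB_Stim, a rise of 1.15 ± 0.39 (SE, adjusted p = 0.0499) in NB_Control and 1.96 ± 0.39 (SE, adjusted p = 0.00378) in NB_Stim. The NB_Control call of Pfkl lay at the threshold and was lost when any 1 array other than replicate 3 of NB_Control or NB_Stim was left out, at adjusted p-values of 0.0613 to 0.172. Pfkm read 8.38 ± 0.61 in A_FACS, 9.003 ± 0.17 in NB_FACS, 10.01 ± 0.35 in NB_Control and 10.67 ± 0.63 in NB_Stim, with 1.01 ± 0.33 (SE, adjusted p = 0.0454) in NB_Control, which missed the threshold with the replicate block (adjusted p = 0.0522), and 1.67 ± 0.33 (SE, adjusted p = 0.00386) in NB_Stim. The NB_Control call of Pfkm was also lost without NB_Control replicate 1 or 2, any 1 NB_FACS array or NB_Stim replicate 1, at 0.0552 to 0.138, and its difference was 0.33 when 2 probes at background were averaged in. Pfkp read 6.17 ± 0.17 in A_FACS, 5.80 ± 0.42 in NB_FACS, 7.06 ± 0.14 in NB_Control and 7.08 ± 0.15 in NB_Stim, with 1.27 ± 0.21 (SE, adjusted p = 0.00123) and 1.29 ± 0.21 (SE, adjusted p = 0.00113). Every culture array of the 3 subunits lay above every NB_FACS array.

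Pfkfb3 and Pfkfb4 encode bifunctional enzymes that set the level of a strong activator of phosphofructokinase. Pfkfb3 read 11.21 and 11.05 in A_FACS, 9.67, 9.82 and 9.59 in NB_FACS, 8.65, 8.52 and 7.73 in NB_Control and 8.69, 8.54 and 8.60 in NB_Stim. The groups were ordered as A_FACS above NB_FACS above both cultures, which overlapped each other. In NB_Control it fell by 1.39 ± 0.22 (SE, adjusted p = 0.00102), and in NB_Stim it fell by 1.08 ± 0.22 (SE, adjusted p = 0.0042). In adults it rose 2.71-fold against newborns, by 1.44 ± 0.25 (SE, adjusted p = 0.00273), with 1.24, 2.55 and 0.53 at its 3 probes, the last being the brightest, on which alone the call was lost (adjusted p = 0.142). Pfkfb4 read 6.70 ± 0.31 in A_FACS, 6.06 ± 0.036 in NB_FACS, 6.34 ± 0.087 in NB_Control and 5.86 ± 0.67 in NB_Stim and was not called in the 4 comparisons. Its 2 probes gave -0.98 and 0.0275 in NB_Stim against NB_Control, and the first was above background on 1 of 3 NB_Stim arrays, so its size is not exact.

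In the lower part of the pathway, 6 of 7 genes from aldolase to pyruvate kinase rose in NB_Control and the same count in NB_Stim. Over all genes 15.8% and 16.0% rose. The median differences over the 7 were 1.32 and 1.39. Aldoa, aldolase A, which splits the phosphorylated hexose, read 13.28 ± 0.27 in A_FACS, 13.11 ± 0.19 in NB_FACS, 14.97 ± 0.39 in NB_Control and 14.88 ± 0.44 in NB_Stim. It rose 3.63-fold in NB_Control, by 1.86 ± 0.26 (SE, adjusted p = 0.000506), and by 1.77 ± 0.26 (SE, adjusted p = 0.000699) in NB_Stim. Tpi1, triosephosphate isomerase, read 12.05 ± 0.38 in A_FACS, 12.53 ± 0.038 in NB_FACS, 13.64 ± 0.50 in NB_Control and 13.83 ± 0.42 in NB_Stim, a rise of 1.11 ± 0.28 (SE, adjusted p = 0.0139) and 1.29 ± 0.28 (SE, adjusted p = 0.00619), the first lost without NB_Control replicate 1 (adjusted p = 0.0583) or 2 (0.058). Both genes were lower on replicate 3 of the cultures than on the other culture arrays, and still above every NB_FACS array.

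Pgk1, which makes the first ATP of the pathway, read 12.41 and 13.20 in A_FACS, 13.62, 13.72 and 14.24 in NB_FACS, 15.17, 15.09 and 15.10 in NB_Control and 14.93, 14.86 and 14.99 in NB_Stim. The adult arrays were the lowest and the NB_Control arrays the highest, with no overlap between any of the 4 groups. Its rise was 1.26 ± 0.22 (SE, adjusted p = 0.00176) in NB_Control and 1.07 ± 0.22 (SE, adjusted p = 0.00446) in NB_Stim. In adults it fell by 1.05 ± 0.24 (SE, adjusted p = 0.0129). The call was lost without A_FACS replicate 1, which leaves 1 adult array (difference -0.65). It was also lost with only the 2 groups compared (adjusted p = 0.0819) and with the Tukey test (0.112). Pgam1, phosphoglycerate mutase, read 13.85 ± 0.13 in A_FACS, 14.35 ± 0.28 in NB_FACS, 15.67 ± 0.14 in NB_Control and 15.74 ± 0.081 in NB_Stim and rose by 1.32 ± 0.16 (SE, adjusted p = 0.000218) and 1.39 ± 0.16 (SE, adjusted p = 0.000165). All 6 culture arrays of Pgam1 were above the 3 NB_FACS arrays.

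Of the enolase genes, Eno1 rose in both cultures and Eno2 was called in adults. Eno1, the form of most tissues, read 12.54 ± 0.41 in A_FACS, 12.92 ± 0.11 in NB_FACS, 14.38 ± 0.46 in NB_Control and 14.82 ± 0.39 in NB_Stim, and rose by 1.47 ± 0.27 (SE, adjusted p = 0.00253) in NB_Control and 1.90 ± 0.27 (SE, adjusted p = 0.000562) in NB_Stim. Eno2, the form of neurons, read 6.27 ± 0.11 in A_FACS, 7.13 ± 0.15 in NB_FACS, 7.12 ± 0.20 in NB_Control and 6.97 ± 0.31 in NB_Stim. Its interval for NB_Control against NB_FACS was -0.42 to 0.40. The adult arrays read 6.35 and 6.19 and the NB_FACS arrays 6.95, 7.20 and 7.24. In adults Eno2 fell by 0.86 ± 0.20 (SE, adjusted p = 0.0143), with -1.43 and -0.29 at its 2 probes. The call was lost without A_FACS replicate 1 (difference -0.94) or 2 (-0.78), which leaves 1 adult array. It was also lost with the Tukey test (adjusted p = 0.0971).

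Pkm encodes the pyruvate kinase that releases pyruvate and the last ATP. The arrays read 8.72, 8.56 and 7.86 in NB_FACS, 11.18, 11.10 and 10.62 in NB_Control and 11.002, 11.01 and 10.33 in NB_Stim, with 8.19 and 8.22 in A_FACS. Culture and sorted arrays did not overlap, and replicate 3 was the lowest array of each newborn group. The rise was 2.59 ± 0.27 (SE, adjusted p = 8.41e-05) in NB_Control and 2.40 ± 0.27 (SE, adjusted p = 0.000127) in NB_Stim, and the cultures did not differ beyond their spread (interval -0.79 to 0.42). Its 2 probes gave 3.62 and 1.56 in NB_Control, and which splice form each detects was not examined.

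At the lactate step the subunits moved in opposite directions in unstimulated culture. Ldha, the subunit that favours lactate production, read 11.99 ± 0.34 in A_FACS, 12.60 ± 0.50 in NB_FACS, 13.87 ± 0.035 in NB_Control and 13.91 ± 0.071 in NB_Stim, and rose by 1.27 ± 0.23 (SE, adjusted p = 0.00232) in NB_Control and 1.30 ± 0.23 (SE, adjusted p = 0.00197) in NB_Stim. Between the cultures its interval was -0.48 to 0.55. Ldhb read 12.92, 13.02 and 13.13 in NB_FACS, 11.89, 12.04 and 10.75 in NB_Control, 13.49, 13.46 and 13.51 in NB_Stim and 13.42 and 13.47 in A_FACS. The NB_Control arrays were below all 8 others, and the NB_Stim arrays sat close together and overlapped the adult arrays. Against NB_FACS it was 2.76-fold lower in NB_Control, a difference of -1.46 ± 0.28 (SE, adjusted p = 0.0033). It was 3.8-fold higher in NB_Stim than in NB_Control, by 1.93 ± 0.28 (SE, adjusted p = 0.00543). NB_Stim against NB_FACS gave 0.46 ± 0.28 (SE, adjusted p = 0.255), without overlap between the arrays. This difference was called on slide 1 only (adjusted p = 0.0114), with only the 2 groups compared (0.045) and without NB_Control replicate 3 (0.0153). The rise with cytokines was 1.51 on slide 1 and 2.76 on slide 2, where NB_Control replicate 3 was the lowest array. Ldhb stayed called without any 1 array. With the Tukey test the call between the cultures was lost (adjusted p = 0.107), as was that in NB_Control against NB_FACS (0.0504). Ldhb rested on 1 probe.

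**Figure D3:**
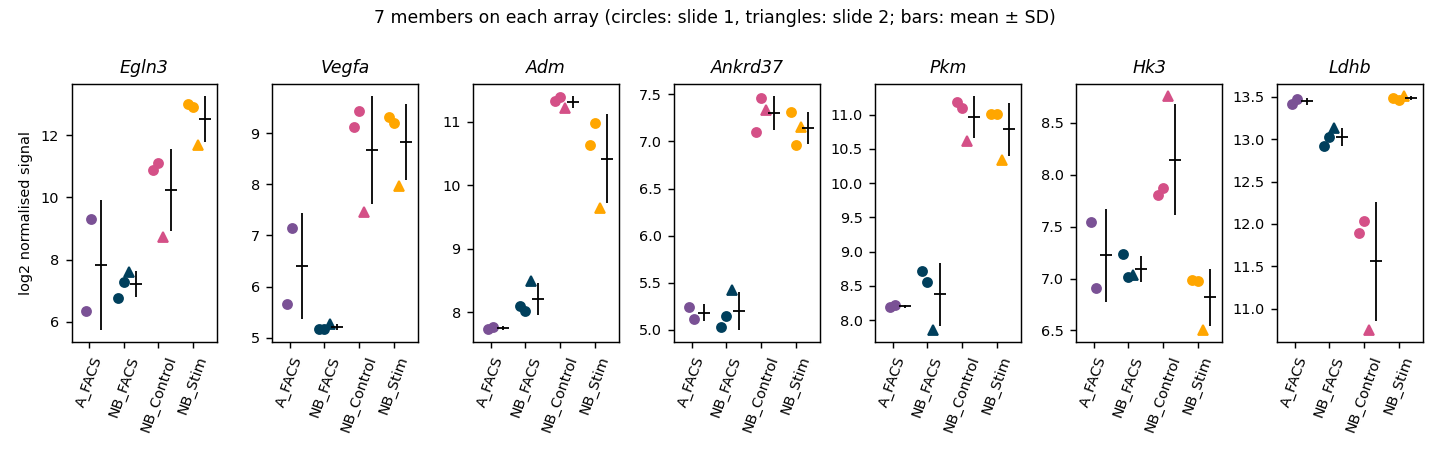
Log2 normalised signal of 7 members on each array, circles for slide 1 and triangles for slide 2, with mean ± SD beside the points and a separate vertical scale for each gene. Hk3 is highest and Ldhb lowest on the NB_Control arrays, while Vegfa, Adm, Ankrd37 and Pkm are high on all 6 culture arrays.

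Of 3 genes in HIF control, 2 rose in each culture, where 15.8% of all genes rose in NB_Control and 16.0% in NB_Stim. Hif1a, the oxygen-regulated alpha subunit whose activity is set mainly at the protein level, read 9.13 ± 0.13 in A_FACS, 8.67 ± 0.37 in NB_FACS, 8.47 ± 1.19 in NB_Control and 9.15 ± 0.98 in NB_Stim. It was not called in any comparison on all arrays. Its spread in culture was wide, since replicate 3 lay lower. The arrays read 9.02, 9.29 and 7.10 in NB_Control and 9.71, 9.73 and 8.03 in NB_Stim. In NB_FACS they read 8.83, 8.92 and 8.25, again with replicate 3 lowest. On slide 1 the NB_Control difference from NB_FACS was 0.27 and on slide 2 -1.15. For NB_Stim against NB_FACS these were 0.84 and -0.22, and on slide 1 only the rise was called (adjusted p = 0.00353). Egln1, the main oxygen-sensing prolyl hydroxylase, read 10.75 ± 0.0022 in A_FACS, 10.27 ± 0.08 in NB_FACS, 11.31 ± 0.28 in NB_Control and 11.53 ± 0.058 in NB_Stim, and rose by 1.04 ± 0.15 (SE, adjusted p = 0.000585) in NB_Control and 1.26 ± 0.15 (SE, adjusted p = 0.000185) in NB_Stim.

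Egln3, a prolyl hydroxylase gene that is itself a HIF target, read 6.78, 7.30 and 7.60 in NB_FACS. The NB_Control arrays read 10.88, 11.10 and 8.72 and the NB_Stim arrays 12.99, 12.91 and 11.67. The adult arrays were far apart, at 6.35 and 9.30. The 3 newborn groups were ordered with no overlap, NB_FACS lowest and NB_Stim highest, while 1 adult array lay below all NB_FACS arrays and the other above NB_Control replicate 3. The rise was 3.01 ± 0.80 (SE, adjusted p = 0.0176) in NB_Control and 5.30 ± 0.80 (SE, adjusted p = 0.000808) in NB_Stim, which is 39.3-fold. NB_Stim lay 2.29 above NB_Control, which did not pass the test (interval 0.49 to 4.09, adjusted p = 0.196). The NB_Control rise was 3.96 on slide 1 and 1.12 on slide 2, and its call was lost without NB_Control replicate 1 (adjusted p = 0.0667), NB_Control replicate 2 (0.07) or NB_FACS replicate 1 (0.062).

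Among genes known to be induced by hypoxia, 6 of 8 rose in NB_Control and 7 of 8 in NB_Stim, against 15.8% and 16.0% of all genes. In adults 1 of 8 (P4ha1) rose, against 9.76% of all genes. The largest changes were in secreted factors. Vegfa, which drives vessel growth, read 5.17, 5.17 and 5.27 in NB_FACS, 9.12, 9.43 and 7.47 in NB_Control, 9.31, 9.21 and 7.97 in NB_Stim and 5.66 and 7.14 in A_FACS. All culture arrays were above all sorted arrays, and replicate 3 was the lowest of each culture. The differences from NB_FACS were 3.47 ± 0.56 (SE, adjusted p = 0.00118) for NB_Control and 3.63 ± 0.56 (SE, adjusted p = 0.000909) for NB_Stim. Of its 4 probes, 3 gave 4.09 to 4.72 in NB_Control and the other 0.61, and the probe at 4.72 was above background on 1 of 3 NB_FACS arrays. Between the cultures the interval was -1.10 to 1.41.

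Adm, adrenomedullin, read 8.10, 8.02 and 8.49 in NB_FACS, 11.33, 11.40 and 11.21 in NB_Control, 10.63, 10.98 and 9.64 in NB_Stim and 7.73 and 7.78 in A_FACS. NB_Control was the highest group and the NB_Stim arrays lay between it and the sorted arrays, with no overlap. The rise was 3.11 ± 0.30 (SE, adjusted p = 4.85e-05) in NB_Control and 2.21 ± 0.30 (SE, adjusted p = 0.000379) in NB_Stim. Adm was -0.90 in NB_Stim against NB_Control, at an adjusted p of 0.165.

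Ankrd37, an ankyrin repeat gene used as a readout of HIF activity, read 5.03, 5.15 and 5.42 in NB_FACS, 7.10, 7.46 and 7.34 in NB_Control and 7.31, 6.97 and 7.15 in NB_Stim. The adult arrays, at 5.24 and 5.12, fell within the NB_FACS range. The rise was 2.10 ± 0.16 (SE, adjusted p = 1.22e-05) in NB_Control and 1.94 ± 0.16 (SE, adjusted p = 1.93e-05) in NB_Stim, nearly the same on both slides (2.19 and 1.91 in NB_Control). Between the cultures the interval was -0.51 to 0.20.

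P4ha1, a collagen prolyl hydroxylase subunit, read 8.58, 8.59 and 8.49 in NB_FACS, 9.72, 9.76 and 9.14 in NB_Control, 10.36, 10.27 and 9.75 in NB_Stim and 10.01 and 10.05 in A_FACS. It rose by 0.99 ± 0.21 (SE, adjusted p = 0.00492) in NB_Control, 1.57 ± 0.21 (SE, adjusted p = 0.000337) in NB_Stim and 1.48 ± 0.23 (SE, adjusted p = 0.00169) in adults against newborns. On its brightest probe alone the NB_Control difference was 0.85 and not called (adjusted p = 0.0774). The 3 NB_FACS arrays were below the 8 others, and P4ha1 had the smallest adjusted p of the 6 adult calls. Ddit4, an inhibitor of mTOR signalling, read 9.82 ± 0.53 in A_FACS, 9.31 ± 0.31 in NB_FACS, 9.97 ± 0.11 in NB_Control and 10.39 ± 0.12 in NB_Stim and rose by 0.66 ± 0.22 (SE, adjusted p = 0.0426) in NB_Control and 1.08 ± 0.22 (SE, adjusted p = 0.00376) in NB_Stim. The NB_Control call of Ddit4 was lost without any 1 of the NB_Control arrays, NB_FACS replicate 1 or 2 or NB_Stim replicate 1 or 2, at adjusted p-values of 0.0584 to 0.145.

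Bnip3 and Bnip3l encode mitophagy receptors of the outer mitochondrial membrane. Bnip3l read 10.93 ± 0.11 in A_FACS, 10.60 ± 0.095 in NB_FACS, 11.83 ± 0.15 in NB_Control and 12.18 ± 0.033 in NB_Stim, and rose by 1.23 ± 0.13 (SE, adjusted p = 7.33e-05) in NB_Control and 1.57 ± 0.13 (SE, adjusted p = 1.64e-05) in NB_Stim. Bnip3 read 11.11 ± 0.14 in A_FACS, 11.41 ± 0.31 in NB_FACS, 12.42 ± 0.76 in NB_Control and 13.36 ± 0.44 in NB_Stim. It rose by 1.95 ± 0.36 (SE, adjusted p = 0.00255) in NB_Stim, whereas the NB_Control difference of 1.00 ± 0.36 (SE, adjusted p = 0.0636) was not called and was 1.59 on slide 1 but -0.18 on slide 2. With the replicate block Bnip3 passed in NB_Control (adjusted p = 0.0481), and without NB_Control replicate 3 it also did (adjusted p = 0.00507). Mxi1, a MAX-binding antagonist of MYC, read 9.07 ± 0.37 in A_FACS, 8.91 ± 0.15 in NB_FACS, 8.84 ± 0.026 in NB_Control and 9.02 ± 0.14 in NB_Stim, with intervals of -0.43 to 0.29 and -0.25 to 0.47 for the cultures.

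**Figure D4:**
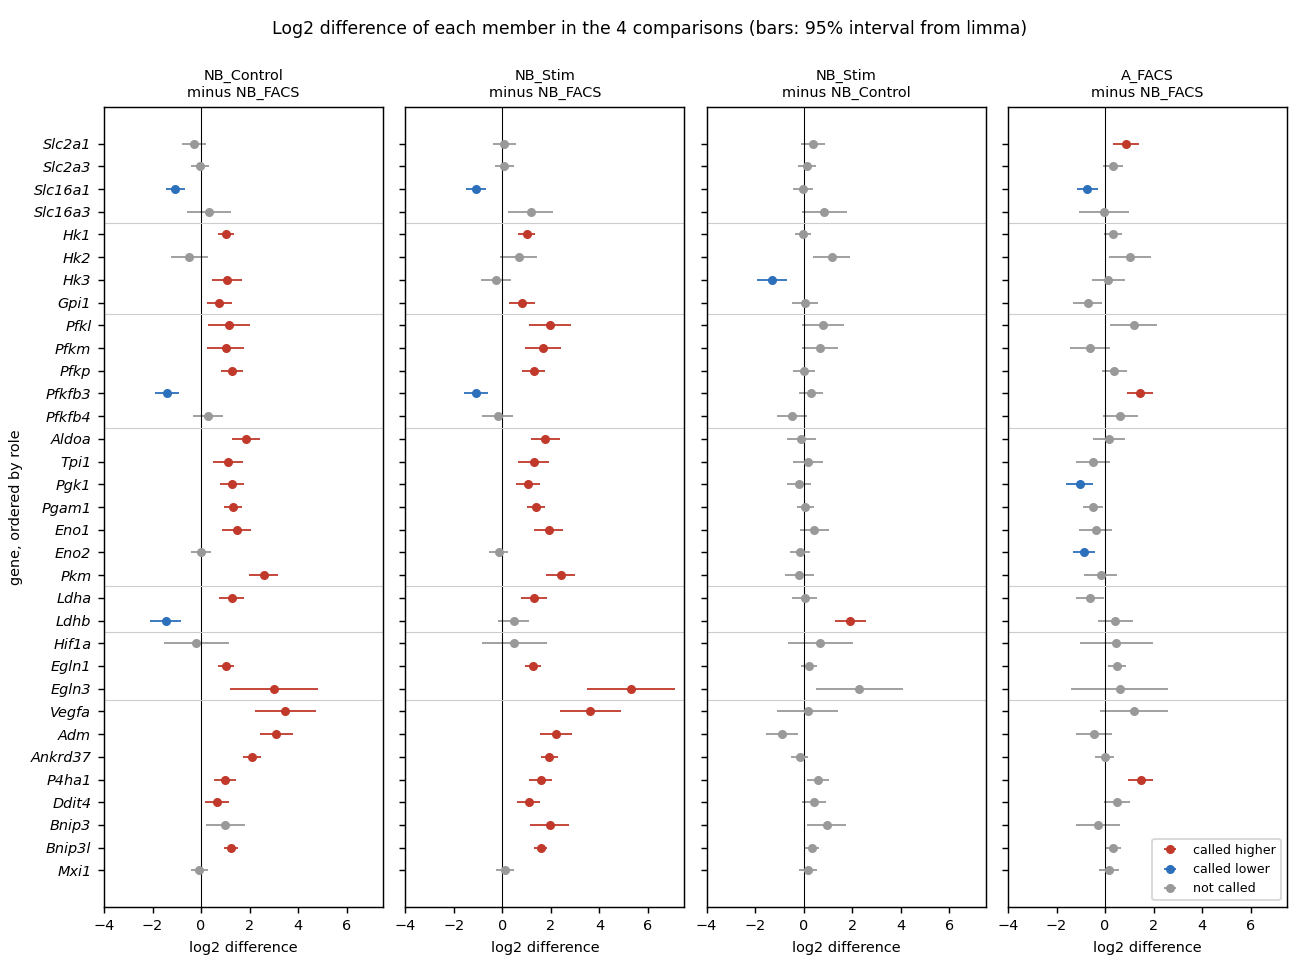
Log2 difference of each of 33 members, ordered by role, in 4 comparisons, with bars for the 95% interval from limma and colour for calls at an adjusted p under 0.05. In both culture comparisons 21 members are called higher, whereas 2 members (Hk3 and Ldhb) are called between the cultures and 6 between adults and newborns.

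All 24 members called in NB_Control against NB_FACS had the same sign on both slides. So did all 23 called in NB_Stim against NB_FACS and both called between the cultures. The calls drew on these same arrays, so this agreement was largely set by the selection and is not separate support. Of the members not called, 3 of 9, 6 of 10 and 25 of 31 had the same sign in these 3 comparisons. In NB_Control 17 of the 24 differences were larger in size on slide 1, and 20 of the 33 members rested on 1 probe. Probes of Gpi1, Tpi1, Pgk1, Pgam1, Eno1, Aldoa, Ldha and Pkm could also bind transcribed copies of these genes, which was not tested.

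Further genes of the same pathways were read from lists that held no member. Of 28 tested genes for glycogen, pyruvate handling and other glycolytic isoforms, 9 rose and 4 fell in NB_Control, and 10 rose and 3 fell in NB_Stim against NB_FACS. Of 27 further HIF pathway and hypoxia genes, 7 rose and 5 fell in NB_Control, and 12 rose and 4 fell in NB_Stim. Over all genes 15.8% rose and 13.9% fell in NB_Control and 16.0% rose and 15.1% fell in NB_Stim, so the falls on both lists were near the share of all genes. Of 6 pentose phosphate genes 3 rose in each culture and the other 3 were not called. In NB_Control P4ha2, another collagen prolyl hydroxylase subunit gene, rose by 2.46 ± 0.29 (SE, adjusted p = 0.000162). Stc2, a secreted hypoxia-induced glycoprotein gene, was not well above background on any sorted array and passed the filter on dim probes only through the cultures. It was called higher in NB_Control, by at least 2.57-fold, a bound that gives it no rank among the rises. Because of the filter this call is not separate support for a rise. Slc2a5, for the fructose transporter GLUT5 found in microglia, fell by 7.48 ± 0.30 (SE, adjusted p = 3.5e-07), with a signal well above background on 2 of 3 NB_Control arrays, so the size of its fall is not exact. Hif3a, a HIF alpha subunit with forms that inhibit the others, fell by 4.24 ± 0.26 (SE, adjusted p = 3.56e-06).

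Against NB_FACS the largest falls in NB_Stim were also in Slc2a5, at -7.34 ± 0.30 (SE, adjusted p = 3.93e-07) with 1 of 3 NB_Stim arrays well above background, and Hif3a, at -4.27 ± 0.26 (SE, adjusted p = 3.32e-06). The largest rises there were Stbd1, a glycogen-binding protein gene, by 3.04 ± 0.29 (SE, adjusted p = 5.03e-05), and Ak4, a mitochondrial adenylate kinase gene, by 2.40 ± 0.53 (SE, adjusted p = 0.00651). Slc2a5 read 13.88 ± 0.21 in A_FACS, 11.57 ± 0.57 in NB_FACS, 4.09 ± 0.31 in NB_Control and 4.23 ± 0.34 in NB_Stim, and both cultures lay below both sorted groups. Hif3a read 4.38 ± 0.088 in A_FACS, 8.67 ± 0.051 in NB_FACS, 4.43 ± 0.60 in NB_Control and 4.40 ± 0.22 in NB_Stim. NB_FACS was the highest group of Hif3a and also had the highest erythroid and cell cycle marker levels, whose part in this was not tested.

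Between the cultures, 1 gene rose and 2 fell of the 28, 2 rose and 1 fell of the 27, and 2 fell of the 6 pentose phosphate genes, where 1.40% of all genes rose and 2.00% fell. The largest rises were Vhl, the ligase subunit that captures hydroxylated HIF, by 1.59 ± 0.15 (SE, adjusted p = 0.000511), and Stbd1, by 1.44 ± 0.29 (SE, adjusted p = 0.0267). Pdp1, which activates pyruvate dehydrogenase, fell by 1.67 ± 0.38 (SE, adjusted p = 0.0468), and G6pdx, which opens the pentose phosphate pathway, fell by 1.33 ± 0.12 (SE, adjusted p = 0.000396). G6pdx had been higher in NB_Control than in NB_FACS by 1.53.

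In adults against newborns, 2 rose and 6 fell of the 28, 2 rose and 7 fell of the 27, and 1 rose and 3 fell of the 6, where 9.76% of all genes rose and 12.9% fell. Slc2a5 rose by 2.31 ± 0.33 (SE, adjusted p = 0.00108) and Stbd1 by 1.76 ± 0.32 (SE, adjusted p = 0.00399), while Hif3a fell by 4.29 ± 0.29 (SE, adjusted p = 2.44e-05) and Hilpda, a hypoxia-induced lipid droplet protein gene, fell by 2.58 ± 0.25 (SE, adjusted p = 0.000141). Of the marker lists, 7 of 8 cell cycle genes, 3 of 6 astrocyte genes and 2 of 7 neuronal genes fell in adults and 5 of 9 microglial genes rose. Of 7 fibroblast genes 5 fell and 1 (Tagln) rose, and their summed level was 10.04 to 11.10 in A_FACS and 9.95 to 10.25 in NB_FACS. Of 7 endothelial genes 1 (Flt1) rose, of 5 neutrophil and monocyte genes 1 rose, and 4 of 8 erythroid genes fell. The summed erythroid level was 13.07 to 14.63 against 17.18 to 17.65 in newborns. Their part in the adult differences was not tested.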

How the data were processed

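RNA was hybridised to 11 single-colour Agilent arrays on 2 slides. The deposited scanner files hold spot intensity values that the authors extracted with Agilent Feature Extraction, version 11.5.1.1 per the file headers, with background subtracted and spatial trends removed. The submitters' processing notes name Agilent Feature Extraction version 11. The processed signals were log2 transformed and quantile normalised between arrays, after the study's methods. The deposited value matrix of the series holds the same processed signals and was not used. Spots flagged as outliers and control spots were left out, spots of a probe were averaged, and of 60037 probes 138 that had no usable spot on 1 or more arrays were removed. Gene symbols came from RefSeq (GRCm38.p6) through the accession in the files, which gave 36190 probes a symbol.

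The filter on dim probes asked for a group in which every array passed the scanner software's test against background. It retained 44727 probes, 28027 of them with a symbol, in 19555 genes (14654 on 1 probe and 4901 on several, whose log2 values were averaged). The 4 groups were fitted together in limma 3.58.1 (R 4.3.3) without covariates, with 7 residual and 2.69 prior degrees of freedom, and p-values were adjusted by Benjamini-Hochberg over all genes, with a threshold of 0.05. Figures and promoter searches used Python 3.11.15, pandas 2.3.3 and matplotlib 3.10.9. The fit was tested on simulated data.

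The members and lists were chosen with earlier results of these data known. All 33 measured members were named, with 2 largest called rises and 2 largest called falls per comparison among the further pathway genes. Values on every array were given for members called between the cultures or with a called log2 difference of at least 2 in size, and, chosen after their values were seen, for the members called in adults and for Hk2 and Hif1a. Pdk1, Ndrg1 and Higd1a were not analysed here. For same-numbered newborn arrays, deviations from the group means correlated at 0.31 to 0.45 between NB_Control and NB_FACS. They correlated at 0.27 to 0.49 between NB_Stim and NB_Control and 0.11 to 0.44 between NB_Stim and NB_FACS. The replicate number was used as a block in an alternative fit only, and the main fit used no block. Number 3 coincides with slide 2, and on slide 1 arrays of different numbers correlated at 0.19 to 0.36, in places above the same-numbered pair (NB_Stim replicate 2 at 0.34 with NB_Control replicate 1 and 0.27 with NB_Control replicate 2, and at 0.35 with NB_FACS replicate 1 and 0.11 with NB_FACS replicate 2), so slide and number are not separated by this check. The 2 numbers shared by A_FACS and NB_FACS gave 0.17 and -0.07 and were not taken as pairs, although the replicate block fit also covered this comparison. Alternatives were 75th percentile scaling, normexp background correction, no or a stricter filter, the brightest probe per gene, the replicate block, slide as a block, slide 1 only, only the 2 groups compared, the methods' Tukey test, and leaving out each array.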

Additional observations from a re-analysis of the deposited data

How the results depend on the processing

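In NB_Control against NB_FACS 24 members were called, 15 with the Tukey test and 18 to 24 when 1 array was left out, and 15 of the 24 were called in every setting. In NB_Stim against NB_FACS 23 were called, 18 to 27 over all settings, 18 of them in every one. In NB_Stim against NB_Control 2 were called, 4 with the replicate block, 5 with slide as a block and 5 on slide 1 only. There was 1 with only the 2 groups compared, 0 with the Tukey test and 1 to 2 when 1 array was left out. The 8 members at an unadjusted limma p under 0.05 include the 2 called, and no share of all genes was taken at that threshold. In A_FACS against NB_FACS 6 were called, 10 with the replicate block, 12 with slide as a block, 13 on slide 1 only, 2 with the Tukey test and 3 (without A_FACS replicate 1) to 11 (without NB_Control replicate 3) when 1 array was left out, and 1 of the 6 was called in every setting. Leaving out an A_FACS array leaves 1 sample, assumed to vary like the other groups. The cause of these shifts was not tested, and shares of all genes under the alternative settings are not given here. Apart from the calls of Pfkm, Hk2, Bnip3, P4ha1 and Slc16a3 given above, the replicate block changed no other call of a member in the newborn comparisons. No called member changed sign in any setting, and of the members not called 5 of 9, 12 of 31, 3 of 10 and 8 of 27 did in NB_Control against NB_FACS, NB_Stim against NB_Control, NB_Stim against NB_FACS and A_FACS against NB_FACS. The gene Pfkfb4 in A_FACS against NB_FACS differed by 0.64 as reported and by -0.0766 with the stricter filter or the brightest probe, both of which use 1 of its 2 probes. Of the probes of Hk1, Hk3, Pfkfb4 and Vegfa, 1 each was at background in at least 1 group or on some of its arrays, which limits the size of those differences.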
